A study of Danio rerio with 8 samples.

Results

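Her1-only peaks are regions of the Her1 peak list, from zebrafish (Danio rerio) embryos, that overlap no region of the Her7 peak list by even 1 bp. Members were chosen by the positions of the deposited peaks in both lists, with no use of their strength beyond the authors' own q threshold. They come from the 25 numbered chromosomes, without the part of chromosome 4 from position 27000000 onward (most of its repeat-rich long arm). Of 1691 Her1 peaks in this territory, 1213 had no Her7 overlap (71.7%, exact 95% binomial interval 69.5 to 73.9) and 478 had one. The whole Her1 list held 2061 peaks, of which 48 lay on the chromosome 4 long arm and 322 on alternate contigs, scaffolds or the mitochondrial genome. The whole Her7 list held 5591 peaks.

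The Her1 list came from the Tg(her1:her1-YFP) line, in which the her1 promoter drives Her1 fused to yellow fluorescent protein, profiled by CUT&Tag with the anti-GFPpoly antibody. The Her7 list came from the Tg(her1:nls-mkate2,her7:her7-YFP) line, in which Her7 carries the YFP tag and her1 sequences drive a nuclear red reporter, profiled with an anti-GFP antibody. In CUT&Tag an antibody guides a transposase to chromatin around the tagged protein, and the released fragments are sequenced. Both used whole, untreated bud-stage embryos, pooled at 120 per replicate. A low signal from many cells and a high signal from few cells therefore cannot be told apart. The Her1 libraries were sequenced on a NextSeq and the Her7 libraries on a MiSeq instrument, so protein, line, antibody and sequencer cannot be told apart. There was 1 list per line and no replicate list, so no difference below has a replicate check and none was tested. The sources used here do not state whether the Her1 list also pools an anti-Venus library of that line. Nor do they state whether the Her7 list pools a second anti-GFP replicate.

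Her1 and Her7 are basic helix-loop-helix repressors of the Hes/Hairy family. In the presomitic mesoderm of the zebrafish they act as dimers that bind DNA and repress transcription, including that of their own genes. The resulting delayed negative feedback produces the oscillations of the segmentation clock, which time the formation of somites. A Her1-only region is a place where the authors' peak caller found enrichment for tagged Her1 and no Her7 region passed its q threshold of 0.01. It does not show that Her7 was absent there.

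Most Her1-only peaks were weak and rested on few fragments. The number of fragments stacked at the summit (the pileup) had a median of 9 in Her1-only peaks (interquartile range 6 to 15), against 27 (13 to 48.8) in Her1 peaks that overlapped a Her7 peak. The pileup was at most 10 in 690 of 1213 Her1-only peaks (56.9%, 54.0 to 59.7), against 77 of 478 overlapping peaks (16.1%, 12.9 to 19.7). The weakest 61 Her1-only peaks rested on 3 fragments each. At the other end, 36 Her1-only peaks had a pileup above 50 and 6 had one above 100. In the authors' values, summit fold enrichment was lower in Her1-only peaks, with a median of 7.76 (5.81 to 11.6), against 12.1 (7.26 to 22.0) for overlapping peaks. The median −log10 q was 10.2 and 21.6 in the same order. Membership depended on the Her7 list and overlap is itself commoner among strong peaks, so these contrasts describe the sets and are not evidence about them.

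Read the other way, the share of Her1 peaks without a Her7 partner went down with the pileup. It was 94.1% (90.5 to 96.7) of 255 peaks with at most 5 fragments, 87.9% of 512 peaks with 6 to 10, and 76.3% of 455 peaks with 11 to 20. It was 43.8% of 320 peaks with 21 to 50 fragments, 31.2% of 96 peaks with 51 to 100, and 11.3% (4.27 to 23.0) of 53 peaks above 100.

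The background behind a peak, which the authors' caller estimated, was often at the lowest value of the list. In 377 Her1-only peaks (31.1%, 28.5 to 33.8) the background lay within 1% of that value, 0.0330 fragments, called the floor here. The same held for 62 overlapping peaks (13.0%, 10.1 to 16.3). At the floor the fold enrichment is fixed by the pileup, and it therefore took a few repeated values. The commonest was 3.87 (52 Her1-only peaks of 3 fragments), followed by 5.81 (48 peaks of 5 fragments) and 4.84 (41 peaks of 4 fragments). Each step between these values is 1 fragment. The background exceeded 10 times the floor in 316 Her1-only peaks (26.1%, 23.6 to 28.6), against 289 overlapping peaks (60.5%, 55.9 to 64.9). It exceeded 100 times the floor in 32 Her1-only peaks, whose fold enrichment had a median of 4.75. Of these 32, 18 had a Her7 summit within 10 kb, against 273 of all 1213 Her1-only peaks (22.5%).

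**Figure D1:**
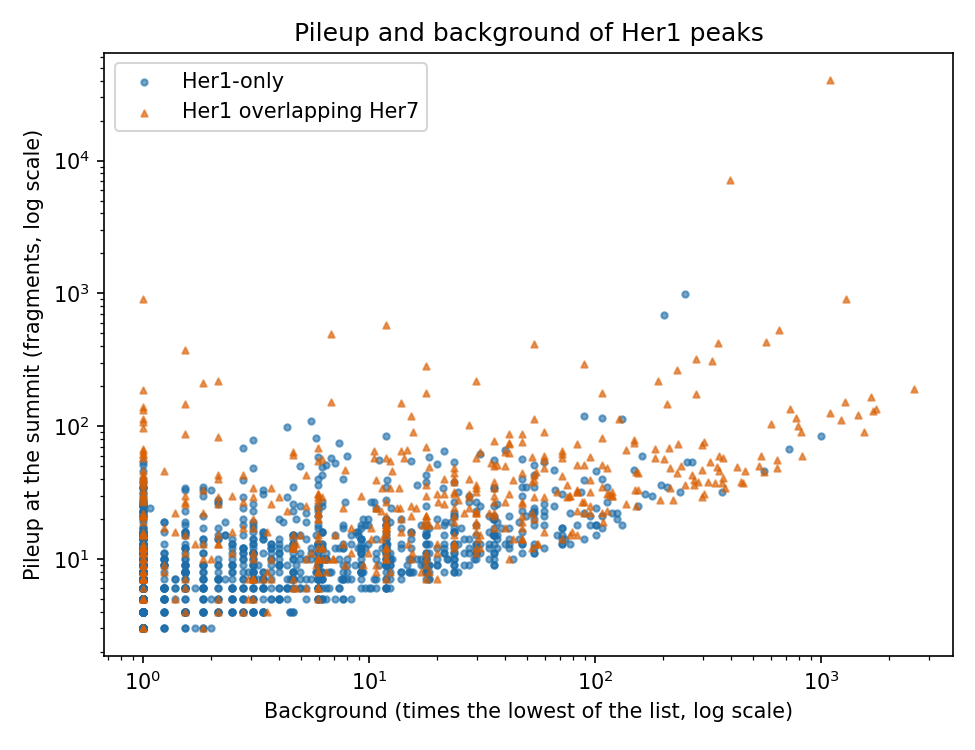
Pileup at the summit (fragments, log scale) against background (times the lowest value of the Her1 list, log scale), with 1 point per Her1 peak: circles for the 1213 Her1-only peaks and triangles for the 478 peaks that overlap a Her7 peak. The column of points at the left edge holds the 377 Her1-only and 62 overlapping peaks at the floor, and only 6 Her1-only peaks lie above 100 fragments.

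Her1-only peaks were narrower than overlapping Her1 peaks. Their median width was 370 bp (interquartile range 305 to 467), against 550.5 bp (374 to 847) for overlapping peaks, and together they covered 507 kb. The Her7 peaks of the same territory were closer in width, with a median of 401 bp (304 to 556). The narrowest Her1-only peaks measured 258 bp, a width shared by the narrowest overlapping peak. A width of 1000 bp was exceeded by 24 Her1-only peaks (1.98%), against 93 overlapping peaks (19.5%). A wide peak has more chance of touching a Her7 peak, so width enters the rule that chose the set. Among Her1-only peaks the width changed little up to 20 fragments. The median was 374.5 bp at 1 to 5 fragments, 357 bp at 6 to 10 and 357 bp at 11 to 20, then 447 bp at 21 to 50 and 594 bp at 51 to 100.

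The summit sat near the middle of many Her1-only peaks. It lay between 45% and 55% of the width in 504 of them (41.5%, 38.8 to 44.4), against 71 overlapping peaks (14.9%, 11.8 to 18.4). This position went with the pileup. It was found in 179 of 240 Her1-only peaks with at most 5 fragments (74.6%) and in 3 of 36 with more than 50 (8.33%).

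**Figure D2:**
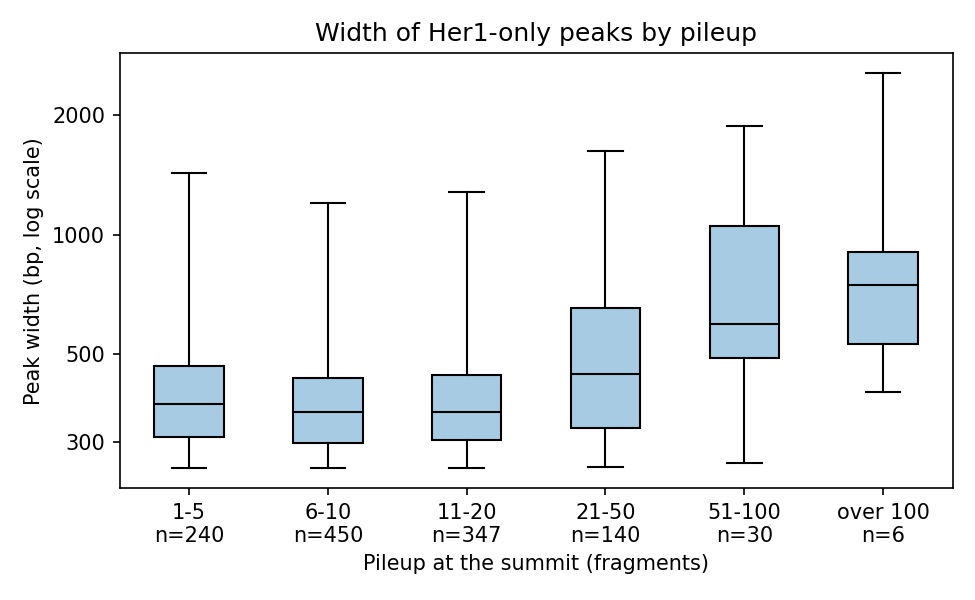
Width of Her1-only peaks (bp, log scale) in classes of summit pileup, with boxes from the lower to the upper quartile, lines at the median and whiskers to the lowest and highest value. The boxes stay alike up to 20 fragments (medians 374.5, 357 and 357 bp) and lie higher from 21 fragments on (medians 447, 594 and 745 bp).

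The widest Her1-only peak lay on chromosome 5 from 68788607 to 68791157 (2551 bp) and was also the strongest. The next widest lay on chromosome 16 from 25657047 to 25658920 (1874 bp, fold enrichment 72.6). The third lay on chromosome 20 from 20307803 to 20309428 (1626 bp, fold enrichment 31.9), 485872 bp from the nearest Her7 summit. The narrowest were 258 bp each, on chromosome 11 from 42099459, on chromosome 15 from 41715836 and on chromosome 16 from 31003448, with 20, 15 and 10 fragments. The chromosome 15 peak had its summit at its second base over a background of 101 times the floor. Genome positions throughout are counted from 1 in the coordinates of the deposited lists, whose build is not given in the sources used here.

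Every numbered chromosome carried Her1-only peaks. Counts had a median of 48 per chromosome, from 26 on chromosome 24 up to 73 on chromosomes 3 and 5. Per Mb, taken up to the last peak of either list, the median was 0.92 Her1-only peaks, against 0.38 overlapping peaks. Chromosome 24 was lowest at 0.62 per Mb and the retained part of chromosome 4 was highest at 1.56, followed by chromosome 16 at 1.29. Densities of Her1-only peaks spanned a narrower range, for their size, than those of overlapping peaks, which ran from 0.12 on chromosome 6 to 0.63 on chromosome 21. Overlapping peaks were fewer, at 7 to 33 per chromosome, and smaller counts vary more for their size. The difference in range was not tested. The Her1-only share of Her1 peaks was lowest on chromosome 24 (26 of 52 peaks, 50.0%, 35.8 to 64.2), chromosome 11 (30 of 57, 52.6%, 39.0 to 66.0) and chromosome 12 (40 of 71, 56.3%, 44.0 to 68.1). It was highest on chromosome 6 (43 of 50, 86.0%, 73.3 to 94.2). These intervals cover counting error only, since neighbouring peaks are not independent. The median pileup of Her1-only peaks hardly varied, between 8 and 11 fragments over all 25 chromosomes.

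**Figure D3:**
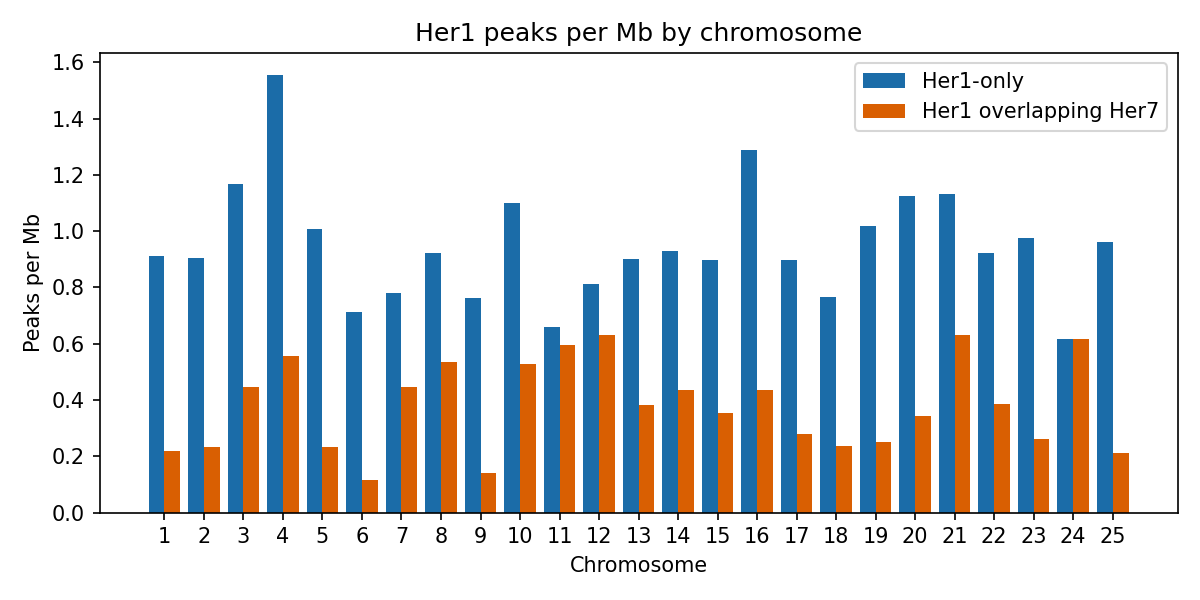
Her1-only peaks (left bar of each pair) and Her1 peaks that overlap a Her7 peak (right bar) per Mb on each of the 25 chromosomes, chromosome 4 being cut at 27 Mb. Her1-only bars run from 0.62 on chromosome 24 to 1.56 on chromosome 4, and on chromosome 24 both bars are equal.

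Along the chromosomes, Her1-only peaks were most frequent at the ends. Each chromosome except chromosome 4 was divided into 10 equal parts up to its last peak. The first part held 153 of 1171 Her1-only peaks (13.1%, 11.2 to 15.1) and the last held 155 (13.2%, 11.3 to 15.3). The lowest share was 84 peaks in the eighth (7.17%, 5.76 to 8.80). Her1 peaks that overlapped a Her7 peak were distributed otherwise, with 7.99% of 463 in the first part, 7.78% in the last and 19.0% (15.5 to 22.9) in the third. The Her7 list itself had 13.0% of 4331 peaks in the first part and 13.4% in the last.

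The nearest Her7 summit lay a median of 75177 bp from the summit of a Her1-only peak (interquartile range 13393 to 219889). Distances ran from 176 bp to 1405986 bp. The Her7 summit was within 1 kb for 61 Her1-only peaks (5.03%, 3.87 to 6.41), between 1 and 10 kb for 212 (17.5%), between 10 and 100 kb for 423 (34.9%) and beyond 100 kb for 517 (42.6%). Neighbouring Her7 summits on the same chromosomes lay a median of 122264 bp apart (10721 to 407138). This is a gap between consecutive summits and gives no expected distance to the nearest Her7 summit. The median distance was lowest on the retained part of chromosome 4, at 18999 bp, and highest on chromosome 1, at 169830 bp. Chromosome 1 had the fewest Her7 peaks per Mb (2.26). Chromosome 25 had the most (4.72), with a median distance of 76942.5 bp.

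Her1-only peaks within 10 kb of Her7 had slightly higher pileups than those farther away. Those within 1 kb of a Her7 summit had a median pileup of 12 fragments and those at 1 to 10 kb a median of 11, against 9 in both classes beyond 10 kb. Their median fold enrichments were 7.83, 8.68, 7.92 and 7.74 from the nearest to the farthest class, with no order by distance. The share with a background above 10 times the floor was 52.5% within 1 kb, 32.5% at 1 to 10 kb, 22.7% at 10 to 100 kb and 23.0% beyond. The nearest Her7 peak had a median pileup of 52, 72.5, 60 and 37 fragments in the same 4 classes. Its median fold enrichment was 9.43, 15.6, 14.0 and 12.8, which was lowest in the class nearest to Her1-only peaks. A Her7 peak that touched a Her1 peak ended its membership, which bears most on the class within 1 kb. These values therefore only describe the classes. Fragment counts of the Her7 list were not scaled to those of the Her1 list. The nearest Her7 peak overlapped another Her1 peak for 75 of 273 Her1-only peaks within 10 kb of a Her7 summit (27.5%, 22.3 to 33.2). The same held for 177 of all 1213 Her1-only peaks (14.6%). By class the share was 16.4% within 1 kb, 30.7% at 1 to 10 kb, 14.9% at 10 to 100 kb and 7.54% beyond.

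The Her1-only peaks closest to the limit of membership missed a Her7 peak by 6 to 33 bp. The closest lay on chromosome 15 from 6866787 to 6867285, 6 bp beyond a Her7 peak that ends at 6866780. Its fold enrichment was 6.94 and its pileup 7, with the summits 547 bp apart. The next lay on chromosome 24 from 42072927 to 42073222 (gap 7 bp, fold enrichment 10.1), chromosome 20 from 149349 to 149839 (gap 11 bp, fold enrichment 9.61), chromosome 14 from 37016166 to 37016466 (gap 20 bp, fold enrichment 7.52) and chromosome 3 from 23561185 to 23561450 (gap 33 bp, fold enrichment 7.58). Their summits lay 290 to 571 bp from the Her7 summit. The Her1 peaks excluded by the smallest overlap shared 4 to 24 bp with a Her7 peak. They lay on chromosome 14 from 41409252 (4 bp), chromosome 18 from 31579303 (6 bp), chromosome 12 from 49168206 (9 bp), chromosome 8 from 46933325 (9 bp) and chromosome 8 from 24485303 (24 bp). Their fold enrichments were 6.45, 4.82, 23.3, 9.68 and 5.81, and their summits lay 328 to 2552 bp from the nearest Her7 summit. The 2552 bp belong to the chromosome 8 peak from 46933325. Its nearest Her7 summit lay in another Her7 peak, from 46930742 to 46931963, and not in the one it overlapped. In all, 85 Her1-only peaks (7.01%) had a Her7 peak within 1000 bp of their edge.

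The farthest Her1-only peaks lay more than 1 Mb from any Her7 summit. The farthest was on chromosome 18 from 42567725 to 42568015, 1405986 bp away, with 16 fragments at the floor of the background and a fold enrichment of 16.5. A pair on chromosome 14, from 38836258 to 38836556 (7 fragments) and from 38831903 to 38832238 (11 fragments), lay 1284485 and 1280245 bp away and 4240 bp from each other. The next were on chromosome 1 from 52632288 to 52632836 (16 fragments, fold enrichment 15.3) and on chromosome 11 from 10728130 to 10728675 (4 fragments, fold enrichment 4.50).

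Her1-only peaks were mostly scattered. Neighbouring Her1-only summits lay a median of 597648 bp apart (interquartile range 131024 to 1525580). Another Her1-only summit was within 10 kb for 191 of them (15.7%, 13.7 to 17.9). Among the overlapping Her1 peaks, 236 of 478 had another of their own kind within 10 kb (49.4%, 44.8 to 54.0), although that set is the smaller. Counting Her1 peaks of either kind, 242 Her1-only peaks (20.0%, 17.7 to 22.3) and 285 overlapping peaks (59.6%, 55.1 to 64.1) had a Her1 neighbour within 10 kb. A total of 389 Her1-only peaks (32.1%, 29.4 to 34.8) had neither a Her1 nor a Her7 summit within 100 kb. These isolated peaks had a median pileup of 8, and 66.1% (61.1 to 70.8) of them rested on at most 10 fragments. The 94 Her1-only peaks within 10 kb of an overlapping Her1 summit had a median pileup of 13, and 37.2% (27.5 to 47.8) rested on at most 10 fragments. Their background exceeded 10 times the floor in 40.4% of cases, against 22.9% of the isolated peaks.

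**Figure D4:**
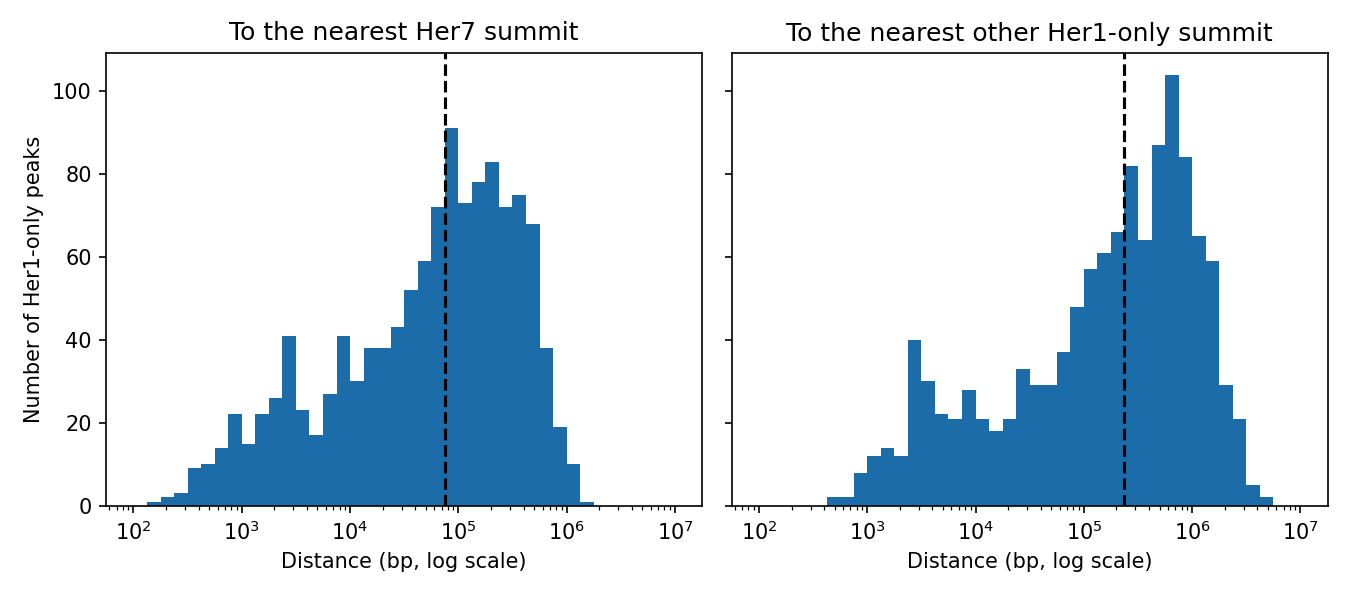
Distance from each of the 1213 Her1-only summits to the nearest Her7 summit (left) and to the nearest other Her1-only summit (right), in bp on a log scale, with the number of peaks per bin and a dashed line at the median. The left median is 75177 bp and the right median 233681 bp, and 273 peaks on the left and 191 on the right lie at or below 10 kb.

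Runs of Her1-only summits spaced at most 10 kb apart numbered 89, of which 80 were pairs, 7 held 3 peaks and 2 held 5. An overlapping Her1 peak lay within 10 kb of 19 of the 89 runs, and within 10 kb of 5 of the 9 runs of 3 or more. Of all 1213 Her1-only peaks taken singly, 94 (7.75%) had an overlapping Her1 summit within 10 kb. A run was searched from 10 kb before its first summit to 10 kb after its last. Longer runs therefore had a wider window, and these counts only describe them. Of the 2 runs of 5, the one with the higher pileup spanned chromosome 3 from 23469459 to 23491235. Its 5 summits, at 23469999, 23478406, 23486073, 23489724 and 23490977, had pileups of 28, 113, 23, 35 and 74 fragments and fold enrichments of 20.8, 21.4, 9.33, 13.0 and 60.3. Each had its nearest Her7 summit, at 23472798 or 23488439, 1285 to 5608 bp away. A further run of 3 Her1-only peaks followed on chromosome 3 from 23561185 to 23580227, with pileups of 10 to 20 and 3 overlapping Her1 peaks within 10 kb. Over both runs, 8 Her1-only, 4 overlapping Her1 and 6 Her7 summits lay between 23469999 and 23580042. No Her1-only summit lay in the stretch between the runs, from 23491235 to 23561185.

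The other run of 5 lay on chromosome 22 from 11139676 to 11152504. Its pileups were 39, 9, 43, 27 and 54 fragments and its fold enrichments 28.6, 6.72, 15.9, 20.8 and 18.5, with the nearest Her7 summits 982 to 7529 bp away. Among the runs of 3, that on chromosome 10 from 39066769 to 39085745 had 22 to 47 fragments over backgrounds of 29.8 to 149 times the floor. On chromosome 16 from 25657047 to 25662379 the peaks had 14 to 79 fragments with no Her7 summit closer than 18763 bp. On chromosome 9 from 56276253 to 56282942 they had 8 to 15 fragments, at least 122849 bp from a Her7 summit. On chromosome 20 from 47698249 to 47706226 the 3 peaks had 9 to 54 fragments, all at the floor of the background, and lay 1998 to 4347 bp from a Her7 summit.

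The 20 strongest Her1-only peaks by −log10 q lay on 13 chromosomes. Their pileups ran from 40 to 989 fragments and their fold enrichments from 21.4 to 107. They were wide, with a median of 1020.5 bp, and 11 of them exceeded 1000 bp. A Her7 summit lay within 10 kb of 10 of the 20, against 273 of all 1213, and an overlapping Her1 summit lay within 10 kb of 7, against 94 of 1213.

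Of those 10 beside Her7, the strongest was the chromosome 5 peak from 68788607 to 68791157. It had 989 fragments, a fold enrichment of 107 and a background of 250 times the floor. Its summit lay 15484 bp from the strongest summit of the whole Her1 list, at 68805441, and 5223 bp from a Her7 summit whose fold enrichment was 189. Whether fragments from the transgenes of either line add to the Her1 or Her7 signal at this locus was not tested. Another Her1-only peak on the far side of that strongest summit, from 68814251 to 68814521, had 4 fragments. On chromosome 23 from 22938760 to 22940278 the Her1-only peak had 99 fragments and a fold enrichment of 87.5. The nearest Her7 peak, 8908 bp away, had 15 fragments, a count not scaled to those of the Her1 list. On chromosome 2 from 42374813 to 42375869 the Her1-only peak had 82 fragments and a fold enrichment of 69.6. The nearest other Her1 summit was 603950 bp away. For the strongest chromosome 5 peak and the chromosome 23 peak, the nearest Her7 peak itself overlapped another Her1 peak. For the chromosome 2 peak it overlapped none.

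Several of the 10 lay beside a strong Her7 peak. On chromosome 20 the Her1-only peaks from 47699335 to 47700156 (51 fragments) and from 47704946 to 47706226 (54 fragments) lay on either side of a Her7 summit at 47701616 (136 fragments, fold enrichment 80.2). Both had a background at the floor and fold enrichments of 50.3 and 53.2. On chromosome 14 from 32061347 to 32062952 the Her1-only peak had 46 fragments at the floor (fold enrichment 45.5), with a Her7 summit of fold enrichment 104 at a distance of 4433 bp. On chromosome 7 from 15874064 to 15874432 it had 48 fragments (fold enrichment 44.5), 1549 bp from a Her7 summit of 295 fragments. On chromosome 21 from 4847491 to 4848444 it had 115 fragments over a background of 107 times the floor (fold enrichment 25.6), and a gap of 363 bp separated it from a Her7 peak. The Her7 peaks beside the chromosome 20, 7 and 21 peaks each overlapped another Her1 peak themselves. That beside the chromosome 14 peak overlapped none.

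A further 5 of the 20 lay 10 to 100 kb from Her7. On chromosome 14 from 32966217 to 32966943 the Her1-only peak had 109 fragments over a background of 5.55 times the floor, which gave a fold enrichment of 93.0. The nearest Her7 summit was 64211 bp away, and another Her1-only summit was 1298 bp away. On chromosome 16 the peak from 25657047 to 25658920, with 79 fragments, led the run of 3 described above. On chromosome 11 from 45299343 to 45300644 the peak had 68 fragments and a fold enrichment of 63.2, with the nearest Her7 summit at 77807 bp. The others lay on chromosome 1 from 26620814 to 26621897 (59 fragments) and on chromosome 20 from 23471359 to 23472103 (58 fragments).

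The last 5 lay more than 100 kb from any Her7 summit. On chromosome 13 from 52160787 to 52161187 the Her1-only peak had 685 fragments in only 401 bp, a background of 203 times the floor and a fold enrichment of 89.3. The nearest other Her1 summit was 153671 bp away. No peak of either list lay beyond it on chromosome 13. On chromosome 3 from 5067720 to 5068182 the peak had 120 fragments over a background of 89.4 times the floor (fold enrichment 30.6), 509343 bp from Her7 and 569727 bp from another Her1 summit. Lower backgrounds were found on chromosome 16 from 13612535 to 13614155 (84 fragments, 11.9 times the floor, fold enrichment 61.0) and on chromosome 4 from 17215724 to 17216761 (60 fragments, 8.01 times the floor, fold enrichment 48.2). On chromosome 21 from 9570280 to 9571282 the peak had 40 fragments at the floor and a fold enrichment of 39.7, 311537 bp from the nearest Her7 summit.

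Some Her1-only peaks had a counterpart by number on an alternate contig, which represents another haplotype of a chromosome segment. For 32 of 1213 (2.64%, 1.81 to 3.70) the Her1 list also held a peak that covered the same numbers on an alternate contig of that chromosome. The same held for 18 of the 478 overlapping Her1 peaks (3.77%, 2.25 to 5.89). The Her7 list held such a contig peak for 1 of 1213 Her1-only peaks and for 23 of the 478 overlapping peaks (4.81%, 3.07 to 7.13). Members were chosen for having no Her7 peak at these numbers on the chromosome, so the Her7 counts only describe the sets. Whether equal numbers mark the same sequence on contig and chromosome was not tested.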

How the data were processed

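The 8 CUT&Tag samples include 2 with a peak list used here, the Her1-YFP anti-GFPpoly sample and the first Her7-YFP anti-GFP sample. The other 6 were not analysed here. Libraries were read in paired-end mode with 76-bp reads, per the labels' protocols. FastQC 0.11.9, Bowtie2 2.5.1, SAMtools 1.17, bedtools and MACS2 2.2.7 are named in the submitters' processing notes. The q threshold of 0.01 is that of the deposited file names. The build, control library, duplicate handling and pooling are not given in the sources used here. Each deposited row gives the authors' fold enrichment (a ratio to the caller's background), a −log10 p-value, a −log10 q-value, the summit offset and an integer score, which was not used.

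Library depth is not given in the sources used here. Pileup and background were solved from the deposited fold, taken as (pileup + 1) / (background + 1), and from p, taken as a Poisson upper tail. A whole-number pileup matched −log10 p to a relative tolerance of 3e-05 in all 2061 Her1 and all 5591 Her7 rows. The whole number with the closest match was kept. The lowest background solved this way was 0.0330 for Her1 and higher, at 0.169, for Her7. Whether this difference reflects library depth was not tested. Pileups were not put on a common scale, which limits every contrast between Her1 and Her7 peaks. The procedure was tested on data simulated with the same formulas, which does not check the formulas themselves. Strand is not recorded in the lists. Distances join summits, on the same chromosome, using the whole Her7 list. Intervals of shares are exact (Clopper-Pearson) and cover counting error only. Regions are named by rule: the 20 highest by −log10 q, the 5 on each side of the overlap limit, the 3 widest and 3 narrowest, the 5 farthest from Her7, and the 5 longest runs, with the 7 runs of 3 ordered by highest pileup, a tie-break added to the rule. The chromosome 5 peak of 4 fragments, the chromosome 9 run, the second chromosome 3 run and the contig counts were chosen after their values were seen. Members, lists and rules were chosen with earlier results of these data known. No genome of the lists' build was at hand, so no gene or sequence is given. Python 3.11.15, pandas 2.3.3, NumPy 2.4.6 and SciPy 1.17.1 were used.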

Additional observations from a re-analysis of the deposited data

How the results depend on the processing

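The 8 results were recomputed under 35 alternatives. Of these, 25 gave a value inside the 95% interval of the reported value (for counts and densities, within 1.5 times) and 10 did not. For medians this interval was taken from ranked values and is not the interquartile range. It ran from 363 to 380 bp for width and from 65230 to 82352 bp for Her7 distance. It was 9 to 10 fragments for pileup and 2.77 to 3.39 times the floor for background. For the share above the median fold enrichment it was 38.6 to 44.2%. The number of Her1-only peaks stayed between 897 and 1457, against 1213. Their share of Her1 peaks (71.7%, 69.5 to 73.9) was not among the 8 results. It left that interval under every alternative for which it was computed. The share was lower for Her1 peaks of −log10 q of at least 5. With no Her7 peak allowed within 1000 bp it was also lower, a direction fixed by construction. It was higher with backgrounds of at most 10 times the floor. When only a reciprocal overlap of 50% ended membership the share was also higher, again by construction. With backgrounds of at most 10 times the floor, the median pileup was 8 fragments (reported 9), the median background 1.54 times the floor (reported 3.08) and the share with another Her1-only summit within 10 kb 11.8% (reported 15.7%); removing high backgrounds lowers the background by construction, and the cause of the other changes was not tested. When only a reciprocal overlap of 50% ended membership, the 1424 peaks had a median width of 384 bp (reported 370), a median background of 3.70 times the floor and a median Her7 distance of 47501 bp (reported 75177), since partly overlapping peaks were added. With no Her7 peak allowed within 1000 bp, that distance was 87201 bp by construction. Spacing limits of 50 and 100 kb gave 27.3% and 35.2%, which by construction cannot be lower than the share at 10 kb. Both were set against the interval for 10 kb and are among the 10 that left it. The share of Her1-only peaks above the median of all 1691 Her1 peaks was 41.4% by fold enrichment and 37.6% by pileup. No paired analysis was possible because only 1 list per line was at hand, which also left no replicate to omit. A pileup of at most 10 fragments, found in 56.9% of Her1-only peaks, limits what can be said of such peaks singly. Library depth is not given, and the background floors of Her1 and Her7 differed.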
